A study of Mus musculus with 240 samples.

Results

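Lysosome and autophagy genes are described here across tdT-positive oligodendrocyte precursor cells (OPCs) and brain tumours of mice. The genes are 35 of the 34623 genes in the deposited count table, taken by symbol from a list, and each symbol was found once. They comprise 9 cathepsins, 10 other lysosomal hydrolases or their activators, 7 genes of the lysosomal membrane and of lipid export, the regulators Tfeb and Grn, and 7 autophagy genes. The list rests on gene function, and its rule uses no measured value. It was chosen with earlier results of these data known, so its counts against the background are descriptive.

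All cells were cut from cryosections by laser-capture microdissection. Bulk samples came from 10 µm sections of mice labelled Trp53-/- Nf1-/- (CKO) or wild-type (WT), counted in days post induction (dpi), that is from the start of tamoxifen. There were 7 CKO and 5 WT animals at 12 dpi, 7 CKO and 5 WT animals at 90 dpi, and 7 tumours of Trp53-/- Nf1-/- mice and 6 WT animals at 150 dpi. Small libraries, from 8 µm sections of Trp53-/- Nf1-/- mice at 12 and 90 dpi, were of 10 cells captured as such (10-cell) or of splits from a pool of cells (pool-and-split). All groups share tamoxifen and the tdT label, and a Cre driver and the age of the mice are not given in the sources used here.

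Lysosomes break down proteins, lipids and glycans delivered by endocytosis and by autophagy. Cathepsins are their proteases, LAMP proteins line their membrane, and the V-ATPase acidifies them. Autophagosomes form with lipid-bound LC3 and GABARAP proteins, and the transcription factor TFEB, which binds the CLEAR element, drives many lysosomal genes. In the brain, microglia and macrophages are rich in lysosomal proteases, cathepsin S among them.

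The promoter windows of the members that the results turn on come first, since the CLEAR element is built on the E-box CACGTG. RefSeq windows (GRCm38.p6, 250 bases before to 50 after a start) were found for 29 of the 35 members, all but Asah1, Becn1, Ctsb, Ctsh, Map1lc3a and Npc1. The 250 bases before the start are shown for a cathepsin and a membrane protein that hold the E-box, and for a cathepsin and an autophagy gene that do not. They read 5′ to 3′ on the gene's strand, and capitals mark CACGTG. Ctsd is on the minus strand (chr7:142387828-142388077), Lamp1 (chr8:13158911-13159160), Ctss (chr3:95526536-95526785) and Gabarapl1 (chr6:129532942-129533191) are on the plus strand. The RefSeq starts of Ctsd and Gabarapl1 lie inside the span given below for each gene.
Ctsd: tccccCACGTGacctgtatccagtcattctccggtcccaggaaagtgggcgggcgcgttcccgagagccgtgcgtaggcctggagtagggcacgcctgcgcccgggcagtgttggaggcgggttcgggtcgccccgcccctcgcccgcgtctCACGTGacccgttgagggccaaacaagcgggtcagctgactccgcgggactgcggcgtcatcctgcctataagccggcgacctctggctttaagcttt
Lamp1: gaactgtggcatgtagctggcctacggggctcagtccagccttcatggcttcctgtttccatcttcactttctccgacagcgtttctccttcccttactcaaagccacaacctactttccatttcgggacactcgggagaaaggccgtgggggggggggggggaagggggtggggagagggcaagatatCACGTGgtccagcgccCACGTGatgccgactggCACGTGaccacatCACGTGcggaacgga
Ctss: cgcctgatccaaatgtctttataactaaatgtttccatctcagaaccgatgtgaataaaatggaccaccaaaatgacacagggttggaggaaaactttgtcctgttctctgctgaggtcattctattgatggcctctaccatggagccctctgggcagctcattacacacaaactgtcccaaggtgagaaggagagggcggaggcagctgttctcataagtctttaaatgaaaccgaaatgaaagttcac
Gabarapl1: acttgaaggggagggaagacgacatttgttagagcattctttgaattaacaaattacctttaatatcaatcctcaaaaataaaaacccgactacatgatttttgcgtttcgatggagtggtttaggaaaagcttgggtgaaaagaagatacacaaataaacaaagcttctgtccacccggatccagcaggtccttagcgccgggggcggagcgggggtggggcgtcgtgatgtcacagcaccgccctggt

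CACGTG reads the same on both strands, so a match counts for both. It was found in the 300-base windows of 9 of the 29 members (31.0%), against 8.09% of the 27025 genes in the table. The extended form TCACGTGA, which contains CACGTG, was found in 4 of the 29 (13.8%) against 1.12% of all genes. Among 97 other lysosome and autophagy genes with a window, 25 (25.8%) held CACGTG and 10 (10.3%) the extended form. The E-box is therefore not particular to the members. The 9 members were Cln3, Ctsa, Ctsd, Ctsf, Ctsl, Gaa, Glb1, Lamp1 and Mcoln1, and the 4 with the longer form were Cln3, Ctsa, Ctsd and Mcoln1. Lamp1 held 4 copies, starting 61, 45, 28 and 15 bases before the start. Neither form was found in the windows of the 5 autophagy members that have one, nor in those of Tfeb and Grn.

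Levels were compared as counts per 1000000 (CPM) after TMM scaling, and a gene was called changed where edgeR's quasi-likelihood test gave a p under 0.05 after Benjamini-Hochberg adjustment across the table. In units of 1000000 counts (M), bulk libraries held 0.0937 to 23.2 M (median 10.0 M), and the shallowest, of animal WT_21167 at 90 dpi, had 0 counts of Ctsc, Ctsh and Gusb. Of the libraries of CKO_20647 at 90 dpi, that labelled GAGCT had 13202 genes detected, against 17853 in that labelled ACTAA. The part of this in the values of CKO_20647 was not tested. The summed CPM of 10 OPC markers was 944 to 1890 in WT and CKO animals, below that of 10 neuron markers (6600 to 15600). In tumours the OPC sum was 1720 to 4420 and the neuron sum 263 to 1510. In every WT and CKO group, though labelled as OPCs, the neuron sum was above the OPC sum. The same held for the group means of the astrocyte sum (2860 to 3490 CPM) and the oligodendrocyte sum (1860 to 3500), against OPC means of 1230 to 1500.

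The comparison of tumours with WT cells of the same age asked which members differ once a tumour has formed. Of the 35 members, 19 rose and 5 fell, against 46.2% of all 16349 genes tested changed, 24.3% upward and 21.9% downward. The median log2 change was 0.62 over the members and 0.06 over all genes. The same 7 tumours were then set against CKO cells at 90 dpi, the last time before tumours. There 19 members rose and 4 fell, against a background of 49.1% (26.4% upward, 22.6% downward), with a median of 0.61 against 0.12. Tumours and controls did not overlap at all for 7 members in the comparison with WT (background 15.7%) and for 9 in that with CKO (background 17.2%).

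**Figure D1:**
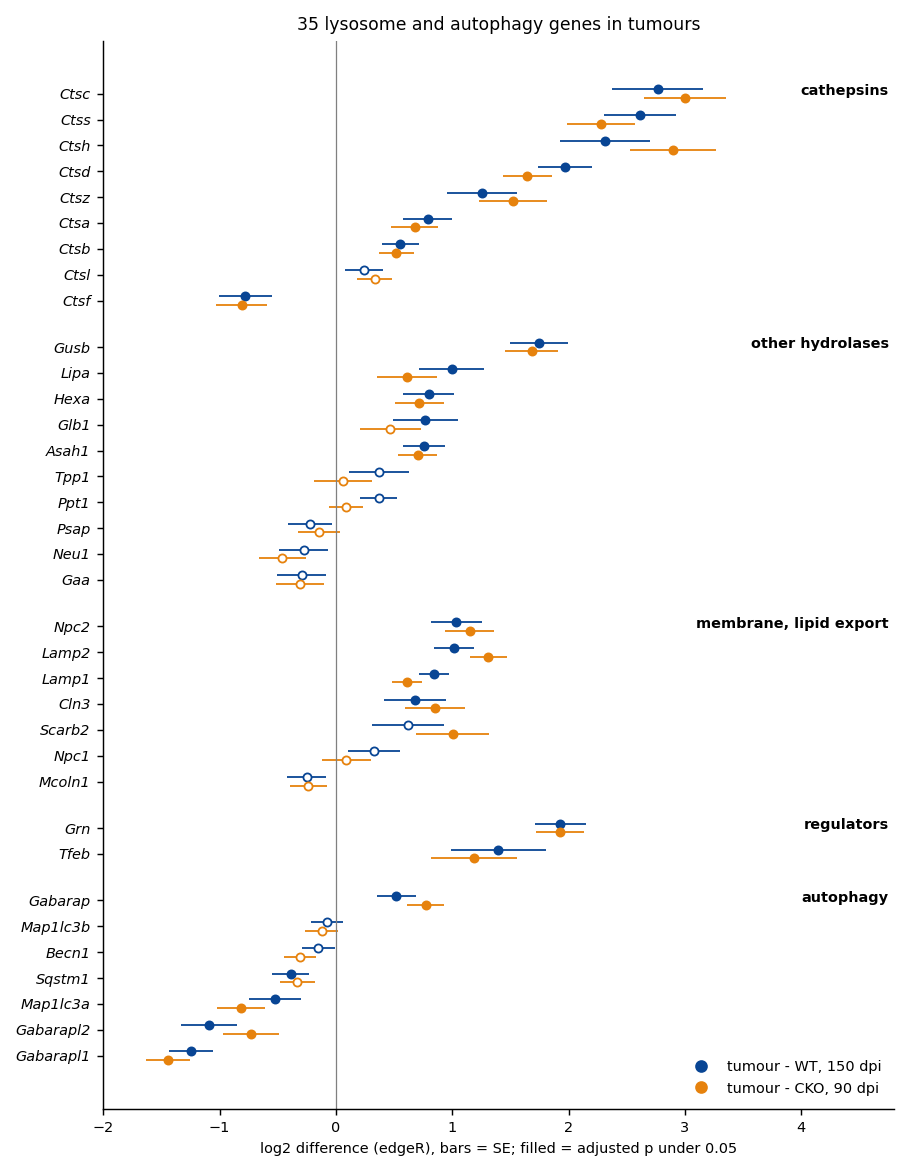
log2 differences of the 35 members between tumours and WT cells at 150 dpi (blue) and between tumours and CKO cells at 90 dpi (orange), by role, with edgeR SE bars (7 tumours, 6 WT and 7 CKO animals). Filled points passed an adjusted p of 0.05. Cathepsins reach 3.00, and 6 of the 7 autophagy genes lie left of 0.

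The 4 largest changes of members against WT were those of cathepsins. Against WT, 7 of the 9 rose and 1 fell (median log2 change 1.25), and against CKO at 90 dpi the counts were again 7 and 1 (median 1.52). The background was 24.3% upward and 21.9% downward against WT, and 26.4% and 22.6% against CKO. Cathepsin D (Ctsd, ENSMUSG00000007891, chromosome 7, 142375911 to 142388038), the main aspartyl protease of lysosomes, had 222 CPM in the lowest tumour, a median of 651 and 893 in the highest. WT animals at 150 dpi had 92.9, 168 and 199 CPM in that order, and CKO animals at 90 dpi 156, 187 and 263. Every tumour lay above every WT animal, and the lowest tumour, Tumor_21256, lay within the range of CKO only through CKO_20647 (263 CPM). The log2 change was 1.97 (SE 0.23, adjusted p 5.5e-09, 3.91-fold) against WT and 1.64 (SE 0.21, adjusted p 5.0e-08) against CKO.

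Cathepsin S (Ctss, ENSMUSG00000038642, chromosome 3, 95526786 to 95556403), a cysteine protease of antigen-presenting cells, had 144, 223 and 577 CPM in tumours as lowest, median and highest. WT animals had 15.9, 39.7 and 64.0 CPM and CKO animals 21.1, 55.4 and 84.8, so that neither group reached the tumours. The log2 change was 2.62 (SE 0.31, adjusted p 9.0e-09) against WT and 2.28 (SE 0.29) against CKO. Tumor_21354, with 577 CPM, stood apart from the other 6 tumours, which had 144 to 270.

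Cathepsin C (Ctsc, ENSMUSG00000030560, chromosome 7, 88278085 to 88310888) activates the serine proteases of immune cells. Its tumours had 23.4, 47.0 and 87.6 CPM as lowest, median and highest, against 3.31, 5.81 and 20.4 in WT and 4.19, 6.68 and 9.17 in CKO. No tumour overlapped either group, and the log2 change was 2.76 (SE 0.39, adjusted p 2.6e-07) and 3.00 (SE 0.35). Cathepsin H (Ctsh, ENSMUSG00000032359, chromosome 9, 90054152 to 90076089), an aminopeptidase, had 8.82, 19.0 and 43.9 CPM in tumours, 1.13, 4.5 and 7.18 in WT and 1.41, 2.95 and 5.63 in CKO, again without overlap. It rose by 2.31 (SE 0.39, adjusted p 6.7e-06) and 2.90 (SE 0.37).

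Cathepsin F was the one cathepsin that fell. Ctsf (ENSMUSG00000083282, chromosome 19, 4855129 to 4860912) had 8.24, 17.0 and 26.3 CPM in tumours, 14.7, 30.6 and 49.2 in WT and 26.6, 29.9 and 37.3 in CKO. Every tumour lay below every CKO animal, while 2 of the WT animals lay within the tumours' range. Its log2 change was -0.78 (SE 0.23, adjusted p 0.00513) and -0.81 (SE 0.22, adjusted p 0.00236). The call against WT was lost without WT_22064 (-0.55, adjusted p 0.0561). Of the others, Ctsz, Ctsa and Ctsb rose by 1.25, 0.79 and 0.55 against WT, and Ctsl did not pass in either comparison (0.24, SE 0.16, and 0.33, SE 0.15).

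Among the 10 other hydrolases and activators, 5 rose against WT (background 24.3%) and 4 against CKO (background 26.4%), and none fell (background 21.9% and 22.6%). The largest change was that of β-glucuronidase (Gusb, ENSMUSG00000025534, chromosome 5, 129989011 to 130003049), with 19.1, 34.5 and 49.2 CPM in tumours as lowest, median and highest. It had 6.80, 8.59 and 14.7 CPM in WT and 8.45, 11.8 and 12.4 in CKO, all below the tumours. The log2 change was 1.74 (SE 0.25, adjusted p 4.6e-07) and 1.68 (SE 0.23). Lysosomal acid lipase Lipa, the hexosaminidase subunit Hexa, β-galactosidase Glb1 and acid ceramidase Asah1 had log2 changes of 0.99, 0.80, 0.77 and 0.76 against WT, all called. Against CKO, Glb1 was not called (0.47, SE 0.26), and Lipa just was (0.61, SE 0.26, adjusted p 0.0472). That call of Lipa was lost under 27 of 44 other settings or left-out animals, with 0.50 (adjusted p 0.117) without Tumor_16713 or CKO_22152, and the change was 1.00 without CKO_20647. The call of Glb1 against WT was lost without Tumor_16844 (0.61), WT_21592 (0.63) or WT_22062 (0.72). Gaa, Neu1, Psap, Tpp1 and Ppt1 passed in neither comparison, with log2 changes between -0.46 and 0.37.

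Of the 7 membrane and lipid-export genes, 4 rose against WT (background 24.3%) and 5 against CKO (background 26.4%), and none fell (background 21.9% and 22.6%). Lamp1 (ENSMUSG00000031447, chromosome 8, 13159161 to 13175338), the major lysosomal membrane glycoprotein, had 326, 505 and 556 CPM in tumours as lowest, median and highest, 180, 284 and 295 in WT and 285, 302 and 359 in CKO. All tumours lay above WT, and the 2 lowest tumours, Tumor_16839 (326) and Tumor_21256 (334), lay within the range of CKO. The top of that range was CKO_20647 (359), which stood apart from the other CKO animals and has a library with few genes detected (13202). Lamp1 rose by 0.84 (SE 0.13, adjusted p 2.1e-06) and 0.61 (SE 0.13, adjusted p 1.2e-04). Lamp2 rose by 1.01 and 1.31, Npc2, the soluble cholesterol carrier, by 1.03 and 1.15, and Cln3 by 0.68 and 0.85, of which the first was lost when any of 8 animals was left out. Scarb2, the receptor that brings glucocerebrosidase to lysosomes, was called against CKO (1.00, SE 0.31) but rested on 1 tumour. It had 1530 CPM in Tumor_21256 and 817 in Tumor_16839, against 202 to 353 in the other 5, and without Tumor_21256 the change was 0.52 (adjusted p 0.0624).

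Both regulators rose. Progranulin (Grn, ENSMUSG00000034708, chromosome 11, 102430315 to 102437048), a secreted and lysosomal protein, had 66.5, 151 and 225 CPM in tumours as lowest, median and highest, 22.7, 40.9 and 46.8 in WT and 27.9, 38.1 and 48.0 in CKO. No tumour overlapped either group, and the log2 change was 1.93 in both comparisons (SE 0.22 and 0.21, adjusted p 5.1e-09 and 1.1e-09). Tfeb (ENSMUSG00000023990, chromosome 17, 47737030 to 47792419) stood among the members of lowest level, with 3.37, 7.53 and 12.7 CPM in tumours, 1.45, 2.39 and 4.33 in WT and 1.22, 2.92 and 6.63 in CKO. The groups overlapped, and it rose by 1.40 (SE 0.41, adjusted p 0.00469) and 1.18 (SE 0.37, adjusted p 0.00867).

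The called autophagy genes went mostly the other way: 4 of 7 fell and 1 rose against WT, and 3 fell and 1 rose against CKO. The background was 21.9% downward and 24.3% upward against WT, and 22.6% and 26.4% against CKO. Of the falls against WT, those of Map1lc3a and Sqstm1 were lost under 38 and 27 of 44 other settings or left-out animals. Gabarapl1 (ENSMUSG00000030161, chromosome 6, 129533160 to 129542346), a GABARAP-family protein, had 97.1, 112 and 266 CPM in tumours as lowest, median and highest, 247, 322 and 507 in WT and 301, 370 and 531 in CKO. Tumor_16839 (218) and Tumor_21256 (266) stood above the other 5, which had 97.1 to 114. It fell by 1.25 on the log2 scale against WT (SE 0.19, adjusted p 1.9e-06) and by 1.45 against CKO (SE 0.19, adjusted p 7.9e-08).

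Its relative Gabarapl2 (ENSMUSG00000031950, chromosome 8, 111940703 to 111953612) had 56.7, 102 and 215 CPM in tumours, 125, 249 and 321 in WT and 128, 176 and 291 in CKO. The groups overlapped through the same 2 tumours, Tumor_16839 (215) and Tumor_21256 (174), and the log2 change was -1.09 (SE 0.24, adjusted p 3.6e-04) and -0.73 (SE 0.24, adjusted p 0.0110). Gabarap, the founding member of the family, rose, by 0.52 and 0.77. Within the family the members therefore changed in opposite directions. RSEM divides reads between similar sequences, so that values within the GABARAP and LC3 families may share reads with each other or with pseudogenes.

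Map1lc3a (ENSMUSG00000027602, chromosome 2, 155276297 to 155278073), an LC3 gene, had 9.25, 22.4 and 27.4 CPM in tumours, 25.0, 29.3 and 35.7 in WT and 27.0, 33.0 and 61.0 in CKO. It fell by 0.52 on the log2 scale against WT (SE 0.22, adjusted p 0.0492), just past the threshold, and by 0.82 against CKO (SE 0.21, adjusted p 0.00143). The autophagy receptor p62 (Sqstm1, ENSMUSG00000015837, chromosome 11, 50199366 to 50210827) had 76.2, 139 and 193 CPM in tumours, 129, 182 and 209 in WT and 143, 166 and 227 in CKO, with wide overlap. Its log2 change of -0.39 against WT (SE 0.16, adjusted p 0.0406) passed and that of -0.33 against CKO (SE 0.15, adjusted p 0.0671) did not. The WT calls of Map1lc3a and Sqstm1 were lost under 38 and 27 of 44 other settings or left-out animals. Map1lc3b, another LC3 gene, and Becn1, of the autophagy initiation complex, passed in neither comparison.

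**Figure D2:**
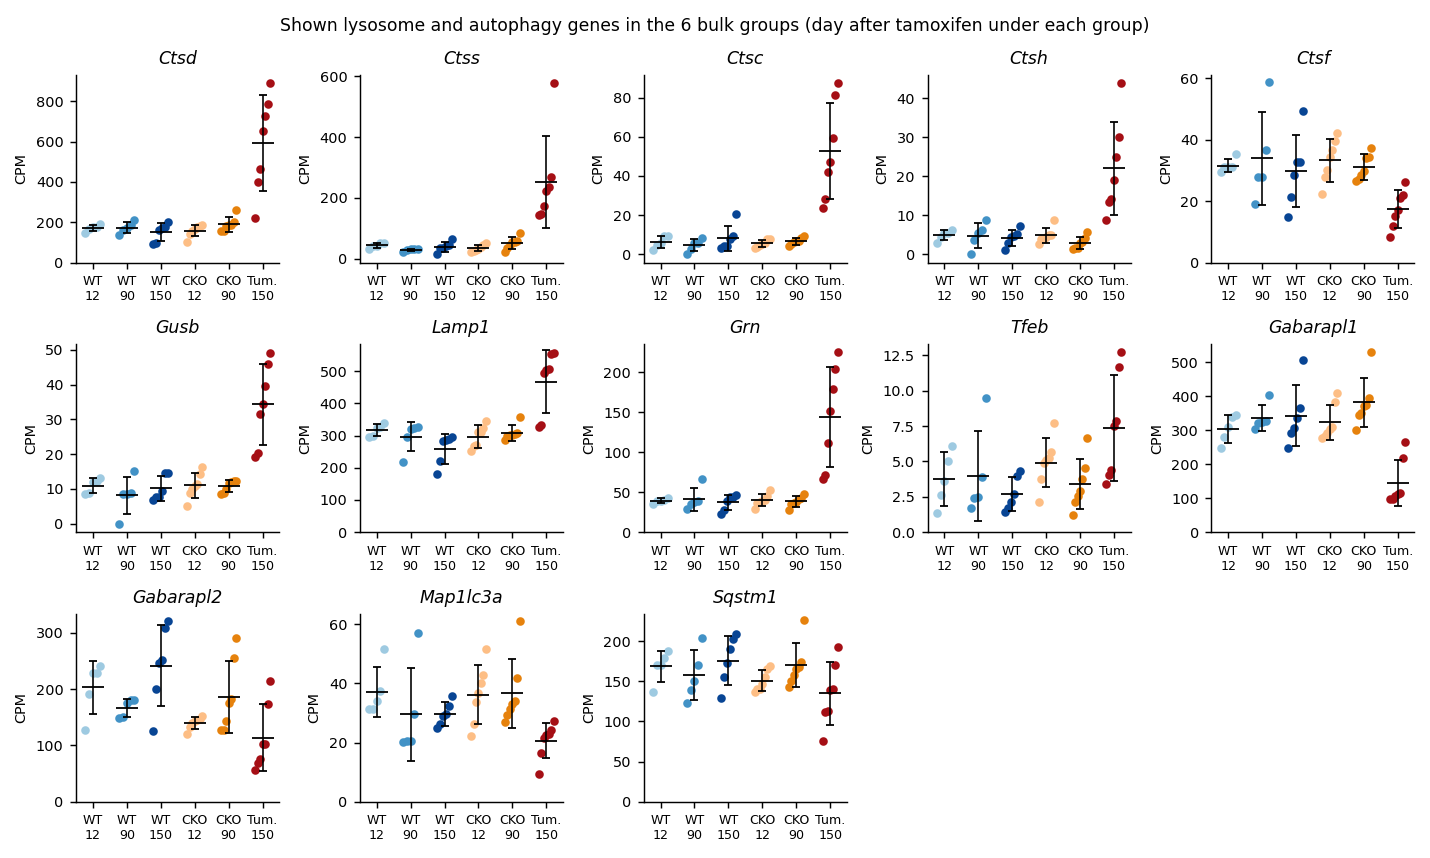
CPM of the 13 members shown in full, in each animal of the 6 bulk groups (5, 5, 6, 7, 7 and 7 animals from left to right), with mean and SD as black marks. Ctsd, Ctss, Ctsc, Ctsh, Gusb and Grn are high in the tumours, and Gabarapl1 is low in 5 of the 7 tumours.

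Per kilobase of exon the order of the members differed between groups. The length used was that of all annotated exons of a gene in GENCODE M21 together, whichever transcripts were present. The order between genes depends on it, and the spread of reads along the exons was not examined. In tumours Ctsd was highest, at 279 ± 112 CPM per kb (SD, n = 7), followed by Lamp1 at 210 ± 43.6 and Ctss at 186 ± 111, neighbours that did not differ beyond their spread. In WT cells at 150 dpi Gabarapl1 (188 ± 49.3 CPM per kb, SD, n = 6), Psap (168 ± 33.4) and Gabarapl2 (144 ± 43.2) led, also within their spread, and Ctsd came sixth at 70.7 ± 21.2. Gabarapl1 and Psap held the first 2 ranks in CKO cells at 12 and 90 dpi too. Tfeb and Ctsc were among the lowest 3 in every non-tumour bulk group, and in tumours Tfeb was lowest, at 1.84 ± 0.932 CPM per kb.

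Other genes of the pathway, from lists of 124 genes of which 122 could be tested, are given by list for tumours against WT. Over all of them 30 rose and 37 fell (median log2 change -0.07), against 24.3% upward and 21.9% downward of all genes tested. These shares are the background of each list below. A list near them, such as autophagosome fusion or sorting to the lysosome, is not a result about that list. Other lysosomal hydrolases rose in 14 of 27 cases and fell in 2, with fucosidase Fuca1 at 1.71 (SE 0.26) and mannosidase Manba at 1.70 (SE 0.33). V-ATPase subunits fell in 12 of 18 cases and rose in 2 (median -0.75), and Atp6v1g2, a subunit form of neurons, fell by 3.30 on the log2 scale, from 231 to 24.4 CPM. Atp6v0e, another subunit, rose by 1.82. Among 15 genes of autophagy initiation 5 fell and 1 rose (Wipi1, 1.36, SE 0.23), and among 8 autophagy receptors 4 fell, Bnip3 (-0.94) and Tax1bp1 (-0.69) furthest, and 1 rose (Optn, 1.02).

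In LC3 conjugation 1 of 10 genes rose (Atg4a, 0.77) and 3 fell, Atg12 (-0.88) the most. In autophagosome fusion 3 of 12 rose and 4 fell, with Vamp8 at 1.12 and Vps18 at -0.54. Of 13 tested genes of membrane and transport 3 rose and 1 fell, with the lysosomal and exosomal tetraspanin Cd63 at 2.04 (SE 0.20). Of 10 genes of nutrient and transcription control 3 rose and 3 fell, and Rragd, a GTPase of mTORC1 signalling, had -2.74 (SE 0.18). Of 9 genes that sort proteins to the lysosome 2 rose and 3 fell, with the sorting receptor Sort1 at -1.78. Against CKO at 90 dpi the V-ATPase list had 14 falls and 2 rises, and the hydrolase list 14 rises and no fall (background 26.4% upward, 22.6% downward).

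Cell type markers moved with these groups. The background of all genes was again 24.3% upward and 21.9% downward against WT, and 26.4% and 22.6% against CKO. Of 16 microglia and macrophage markers, 14 rose against WT and 16 against CKO (median log2 change 2.30 and 2.02), none was at 0, and C1qb went from 11.9 CPM in WT to 92.1 in tumours. Their summed CPM was 352 to 1410 in tumours, 128 to 206 in WT at 150 dpi and 127 to 229 in CKO at 90 dpi, without overlap. Of 10 neuron markers 9 fell against WT and 10 against CKO (median -3.42 and -3.67), and their sum was 7850 to 11300 CPM in WT at 150 dpi and 7960 to 15600 in CKO at 90 dpi. Of 10 oligodendrocyte markers 6 fell and 1 rose against WT, and 8 of 10 OPC markers rose. Of 8 astrocyte markers 4 rose and 2 fell against WT, with a summed CPM of 1170 to 3730 in tumours and 2740 to 4040 in WT. Of 10 endothelial markers 3 fell and none rose against WT, with sums of 111 to 257 CPM in tumours and 233 to 338 in WT. In bulk samples, fewer or more cells of a type and less or more RNA per cell cannot be told apart, and the part of these markers in the changes of the members was not tested.

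Between tumours the members varied by a median coefficient of variation of 40.1%, against 46.4% for all genes tested, and by 17.5% in CKO cells at 90 dpi against 28.2%. In Tumor_21354 the macrophage marker sum (1410 CPM) and the sum of the 9 cathepsins (2540 CPM) were both highest, and in Tumor_21256 both were lowest (352 and 975). Tumor_16844 came second in both (1020 and 2010). Tumor_16713 had the third highest marker sum (861) and cathepsin sum (1670), and Tumor_16839 the second lowest marker sum (374) with 1150 CPM of cathepsins. Tumor_21349 and Tumor_16840, with marker sums of 521 and 541, had 1640 and 1390. Cathepsin S did not follow this order throughout: Tumor_21256, with the lowest marker sum, had 236 CPM of Ctss, and Tumor_16713 had 148. Other marker sums varied between tumours too. Tumor_21256 had the highest sums of neuron (1510 CPM), OPC (4420), astrocyte (3730) and endothelial markers (257). The part of each in the differences between tumours was not tested.

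**Figure D3:**
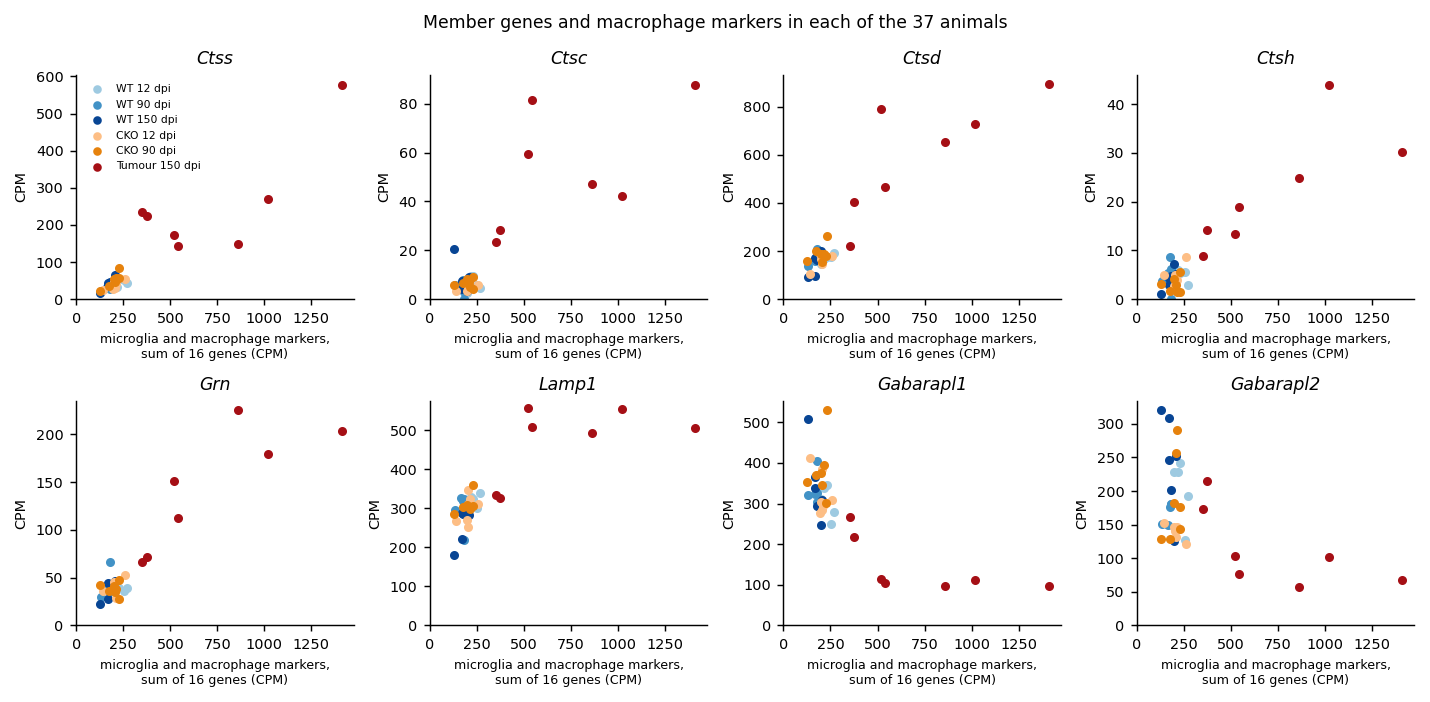
CPM of 8 members against the summed CPM of 16 microglia and macrophage markers in each of 37 animals, coloured by group. The 7 tumours spread from 352 to 1410 in the marker sum, to the right of all other animals. Ctsh and Grn are higher in the tumours with larger sums, while Gabarapl1 is above 200 CPM in the 2 tumours with the smallest sums. Of these, Tumor_21256 also had the largest neuron marker sum of the tumours (1510 CPM).

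Before tumours the comparison of CKO with WT cells asked for an effect of genotype alone. No member was called at 12 dpi (background 0.0183%) or at 90 dpi (background 0.0489%) in edgeR, with 3 members at an unadjusted p under 0.05 each time, and DESeq2 called none. At 12 dpi the differences ran from -0.67 for Ctsz (SE 0.32) to 0.34 for Tfeb (SE 0.42). At 90 dpi they ran from -0.95 for Ctsh (SE 0.40) to 0.77 for Ctss (SE 0.32, adjusted p 0.901). Ctss then had 21.1, 55.4 and 84.8 CPM as lowest, median and highest of 7 CKO animals, and 22.2, 28.4, 31.8, 32.6 and 32.7 in the 5 WT animals. Ctsd had 136, 160, 171, 188 and 209 CPM in WT, inside which 6 of the 7 CKO animals lay. The median SE over the members was 0.23 at both times.

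Over time no member was called either. The background was 0% for CKO at 90 against 12 dpi, 0.00612% for WT at 90 against 12 dpi and 0.0183% for WT at 150 against 90 dpi, and 1, 2 and 1 members had an unadjusted p under 0.05. DESeq2 called no member in these comparisons, and a fit of the compared groups alone called Psap and Scarb2 lower in WT at 90 than at 12 dpi. The genotype effect did not change detectably from 12 to 90 dpi, with no member called (background 0%), 2 at an unadjusted p under 0.05, none called by DESeq2 and differences between -0.94 and 1.03.

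From 90 to 150 dpi the genotype effect did change, when tumours stand in for CKO cells. Of the 35 members, 11 were called upward and 3 downward, against a background of 30.0% (14.2% upward, 15.8% downward). This contrast uses the tumours and the WT animals at 150 dpi again, so it is no separate evidence of the changes above. By role it called 5 of 9 cathepsins upward (Ctsh 3.26, Ctsc 2.51, Ctss 1.85, Ctsd 1.82 and Ctsz 1.25), Gusb (1.64) alone among the other hydrolases, 4 of 7 membrane genes (Cln3, Lamp2, Npc2 and Lamp1) and Grn (1.88). The calls of Cln3, Npc2 and Ctsz in this contrast were lost under 18, 6 and 4 of 44 other settings or left-out animals, and all 3 with the deepest library of each animal. Gabarapl1 (-1.42), Gabarapl2 (-1.26) and Map1lc3a (-1.12) were called downward. Tfeb was not called (1.17, SE 0.59, adjusted p 0.132).

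The 112 10-cell libraries (1.64 to 6.49 M counts) and 80 pool-and-split libraries (1.91 to 5.16 M) fall into 4 sets per time by sex and label number, each with 14 10-cell and 10 pool-and-split libraries. Counts were summed per set for tests of level, so that n is 4 sets. These libraries were amplified by PCR and the bulk ones by T7 polymerase, and levels are not compared between them. Ctsc was the member detected least often in each of the 4 kinds of library, in 17.5% to 44.6% of libraries, level with Tfeb in pool-and-split libraries at 12 dpi. The median member was detected in 83.9% of the 10-cell libraries at 12 dpi and 96.4% at 90 dpi, and in 95% of the pool-and-split ones at either time.

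In level no member was called in any of 4 comparisons, in each of which the background was 0%. Of the 35 members, 1 had an unadjusted p under 0.05 for 10-cell against pool-and-split at 12 dpi, 2 at 90 dpi, 4 for 10-cell at 90 against 12 dpi and 4 for pool-and-split over time. DESeq2 called none, 2, 0 and 3 of them in that order, Ctsc upward and Npc1 downward in the second and Npc1 and Npc2 upward and Ctsc downward in the last. The median SE was 0.64 to 0.65 on the log2 scale, so that moderate differences were not detectable at this number of sets. Ctsd, for example, had summed levels of 275, 302, 351 and 872 CPM in the 4 10-cell sets at 12 dpi and 315, 408, 498 and 618 in the pool-and-split sets. At 90 dpi these were 358, 682, 828 and 921 against 587, 887, 910 and 914 CPM, and the ranges overlapped at both times.

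Spread was compared because each 10-cell library holds its own cells. Pool-and-split libraries are splits of a common pool and were taken as the control for technical spread. It was measured as the absolute deviation of log2(CPM + 1) from the median of the set and tested with limma for 32 members, all but Cln3, Ctsc and Tfeb, which were detected in under 50% of libraries. At 12 dpi 25 of the 32 members were more spread in 10-cell libraries, with a median difference of 0.29 against 0.14 for all genes. At 90 dpi 26 of the 32 were less spread, with a median of -0.26 against -0.08. The medians of all genes had the same signs, and the share of all genes with each sign was not counted. With spread below that of the control at 90 dpi, the control set no lower limit there. The difference is then not a measure of spread between cells. No member was called at 12 dpi (background 0.136%; 5 members at an unadjusted p under 0.05) or at 90 dpi (background 0%; 7 members).

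The change of this difference between the times was called for 1 member, against a background of 0.486%. That member was cathepsin L (Ctsl, ENSMUSG00000021477, chromosome 13, 64359337 to 64370890), a cysteine endopeptidase. At 12 dpi its SD of log2(CPM + 1) was 3.08, 3.47, 3.24 and 3.06 in the 10-cell sets (female 1, female 2, male 1, male 2) and 2.54, 1.97, 2.10 and 1.82 in the pool-and-split sets. At 90 dpi it was 2.19, 1.17, 1.77 and 2.01 in the 10-cell sets and 3.24, 3.17, 3.61 and 2.93 in the pool-and-split sets. The 2 kinds did not overlap at either time, and their order was opposite. Ctsl was picked by a test on these same libraries, so this is no separate evidence. The share of all genes without such overlap was not counted. The change was -2.50 (SE 0.47, adjusted p 0.00266) in limma with libraries as the samples, the difference being 1.08 at 12 dpi (SE 0.33, not called, adjusted p 0.148) and -1.42 at 90 dpi (SE 0.33, not called, adjusted p 0.0627). With 1 log2 SD per set, so that the 4 sets of each kind and time are the samples, it was -1.45 and not called (adjusted p 0.158).

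At 12 dpi Ctsl was detected in 52 of the 56 10-cell libraries and in 39 of the 40 others, and at 90 dpi in all 56 and in 32 of 40. Its level was called in none of the 4 comparisons. Sqstm1 and Lamp1, with changes of -1.38 and -1.69 (adjusted p 0.0741 and 0.0935), came next to the threshold. The median number of genes detected also differed between the kinds. It was 7496 in 10-cell (SD 2430) and 8651.5 in pool-and-split libraries (SD 1450) at 12 dpi, and 10071 (SD 1600) and 8686 (SD 1350) at 90 dpi. The median share of spike-in reads was 3.01, 3.63, 2.46 and 4.92% in the same order. At 90 dpi that share ran from 0.038 to 8.59% in 10-cell and from 0.006 to 20% in pool-and-split libraries. The part of library quality in the change of spread was not tested.

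**Figure D4:**
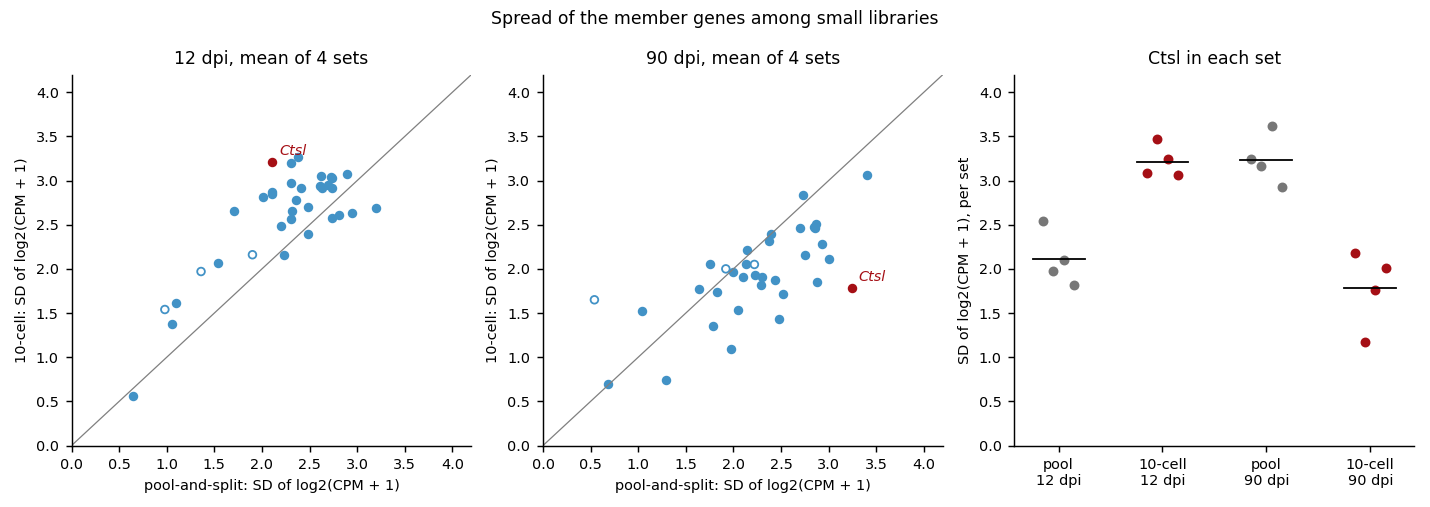
Left and middle, SD of log2(CPM + 1) of the 35 members in pool-and-split (x) and 10-cell libraries (y) at 12 and 90 dpi, each the mean of 4 sets, with the line of equal SD; open circles are the 3 members not tested. Right, the SD of Ctsl in each set, with the mean as a line. Most members lie above the line at 12 dpi and below it at 90 dpi, and Ctsl lies farthest from it at 90 dpi.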

How the data were processed

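Cells were taken by laser capture, bulk RNA was amplified by T7 polymerase and small libraries by PCR, per the labels' protocols. The authors deposited 1 table of RSEM expected counts per gene, with Bowtie2 and GRCm38 named in the submitters' processing notes. Versions and the annotation are not given in the sources used here. Columns were matched to samples by name. For these values, expected counts were rounded, 92 spike-ins were left out, the libraries of 11 animals with 2 were summed, and small libraries were summed into 16 sets. The labels do not say which animals a set holds, so p-values of level in small libraries measure only the spread between sets, and those of spread only the variation between libraries.

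Levels were tested with edgeR 4.0.16 in R 4.3.3 (TMM, filterByExpr with a minimum count of 10, sex as a covariate), 37 bulk animals in 1 fit and 16 sets in another. Spread was tested with limma 3.58.1 on log2(CPM + 1) of genes detected in 50% of libraries, treating libraries as samples within sets. SE is the log2 change divided by the root of F. Genes are called at an adjusted p of 0.05. Alternatives were DESeq2 1.42.0, RLE scaling, other filters and pseudocounts, the deepest library of each animal, fits of the compared groups alone, no sex term, a replicate block and each animal or set left out. Scripts were run on simulated data with known changes. For spread these were independent normal values, without effects of sets, undetected genes or differences in library quality. That run therefore cannot judge the result of Ctsl.

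Members and gene lists were chosen with earlier results of these data known. In each bulk comparison, the called members with the 5 highest and the 5 lowest log2 changes were given in full, with Lamp1, Ctsd, Tfeb, Sqstm1 and Map1lc3a whatever they did, as was any member called in the small libraries. Of other lists, the 2 largest called rises and falls could be named. Scarb2 was singled out after its values were seen. RefSeq windows came from a table for GRCm38.p6, and 33 of the 35 members have the same coordinates in GENCODE M21.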

Additional observations from a re-analysis of the deposited data

Results flagged for a closer look

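In 13 of 78 groups of animals checked over the 13 members shown in full, 1 animal lay apart from the others, and chance alone gives about 1 in 20 such groups. The same animals recur for each member, so the groups are not independent and the 2 shares cannot be weighed against each other. In CKO cells at 90 dpi, CKO_20647 was the highest animal for Ctsd (263 CPM), Gabarapl1 (531 CPM), Lamp1 (359 CPM) and Sqstm1 (227 CPM). Its library GAGCT had 13202 genes detected, against 17853 in its library ACTAA, and the part of this was not tested. In WT cells at 90 dpi, WT_21167, the shallowest library, was the highest for Grn (66.4 CPM), Map1lc3a (56.9 CPM) and Tfeb (9.48 CPM) and the lowest for Lamp1 (218 CPM), and WT_22184 was the highest for Gabarapl1 (404 CPM). The library of WT_21167 held only 0.0937 M counts, so its values of Grn, Map1lc3a and Tfeb rest on very few reads. Single animals also stood apart for Ctsc in WT at 150 dpi (WT_21592, 20.4 CPM), Ctsf in WT at 12 dpi (WT_22280, 35.4 CPM), Ctsh in CKO at 12 dpi (CKO_22364, 8.7 CPM) and Ctss in tumours (Tumor_21354, 577 CPM). Without Tumor_21354 the log2 change of Ctss against WT was 2.33.

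The difference between genotypes changed from 90 to 150 dpi, by edgeR's test of that change, for 14 of the 35 members, against 30.0% of all genes tested. Of these, 10 are among the members shown in full, which were chosen for large changes in comparisons that share the tumours and WT animals. The log2 changes were 3.26 for Ctsh, 2.51 for Ctsc, 1.88 for Grn, 1.85 for Ctss, 1.82 for Ctsd, 1.64 for Gusb and 0.81 for Lamp1, and -1.42 for Gabarapl1, -1.26 for Gabarapl2 and -1.12 for Map1lc3a. In the small libraries the difference in spread between 10-cell and pool-and-split libraries changed from 12 to 90 dpi for Ctsl, by -2.50 in limma's test over libraries. With 1 log2 SD per set the change was -1.45 and not called (adjusted p 0.158).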

How the results depend on the processing

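No called member changed direction in the settings in which it was tested, at most 44 other settings or left-out animals for levels and 15 settings or left-out sets for the spread of Ctsl. Of the 24 members called against WT, 17 kept their call wherever they were tested (17 to 25 called), as did 18 of 23 against CKO at 90 dpi (18 to 26) and 11 of 14 for the change from 90 to 150 dpi (11 to 18). With the compared groups fitted alone, Ctsa, Ctsb, Ctsf, Glb1, Cln3, Map1lc3a and Sqstm1 lost their call against WT, and Ctsb, Lipa, Cln3, Gabarapl2 and Scarb2 theirs against CKO. RLE scaling moved the median of all genes by 0.15 to 0.17 in the 3 comparisons with tumours and by -0.04 to 0.01 in the others, and called 22 members higher and 3 lower against WT. Of the members without calls elsewhere, the compared groups alone gave 2 for WT at 90 against 12 dpi (Psap and Scarb2, lower), and DESeq2 gave 2 for the level of 10-cell against pool-and-split libraries at 90 dpi and 3 for pool-and-split libraries over time. For spread at 90 dpi, a pseudocount of 0.1 and detection in 10% of libraries each gave 1 member, detection in 90% gave 2, and leaving out a set gave 0 to 2 (above 0 without female 2, male 1 or male 2 of 12 dpi). For the change of spread, detection in 90% gave 3, the log2 SD per set gave 0, and leaving out a set gave 1 to 2 (2 without female 1 or female 2 of 12 dpi). The cause of these shifts was not tested.

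Same-numbered sets of the 2 kinds correlated by 0.0204 to 0.106, and at 90 dpi each such pair (0.0404 to 0.0948) lay above every pair of different numbers (at most 0.0241), a hint of pairing from the data. Across times, same-numbered sets correlated by -0.0351 to 0.0179. The labels give no shared source, so the sets were not treated as paired. With a replicate block, 0 members were called in each comparison of level, 0 for spread at either time and 1 for its change, as without it. The median SE of 0.64 to 0.65 over 4 sets limits what the small libraries can show in level.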
